A study of Mus musculus with 16 samples.

Results

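The genes described here encode subunits of the transcription factor NF-kappaB and regulators that mostly hold it in check. Nfkbiz, a relative of the inhibitor genes, encodes a protein that acts with NF-kappaB at a subset of its targets. Of 10 listed genes, 9 had a probe set, the set of probes an array reads as one value, with that gene as its only symbol: Nfkb2, Rela, Relb, Rel, Nfkbia, Nfkbib, Nfkbie, Nfkbiz and Tnfaip3, each with 1 such probe set, out of 19938 genes compared in the series. The other listed gene, Nfkb1, was not analysed here. They were measured in cultured mouse embryonic fibroblasts of 2 lines on 16 arrays, 1 per plate. The knockdown line stably expressed an shRNA that targets Atf5, which encodes an ATF/CREB-type DNA-binding regulator, and the control line was wild type with a scramble shRNA. Each line was kept for 8 h in 1 µM MG132, an inhibitor of the proteasome, or in the vehicle DMSO, which gives 4 groups of n = 4: knockdown with MG132, control with MG132, knockdown with vehicle and control with vehicle. The labels do not say whether either line was 1 clone or whether plates came from separate cultures, and the p-values therefore reflect plate-to-plate spread alone, which may be technical.

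NF-kappaB is a dimer of Rel-family proteins that is kept in the cytoplasm by IkappaB proteins. Signals from receptors for tumor necrosis factor, interleukin-1 or microbial products activate the IkappaB kinase, which phosphorylates IkappaB, and the marked inhibitor is tagged with ubiquitin and destroyed by the proteasome. The freed dimer enters the nucleus and switches on genes for chemokines, adhesion molecules and its own inhibitors, a negative feedback loop well known in fibroblasts. The precursor encoded by Nfkb2 is also trimmed to its active form by the proteasome. The arrays read transcripts, not the proteins that MG132 preserves.

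Start-site windows of these genes are shown first, because several of them are textbook targets of the factor they encode or restrain. The RefSeq windows (GRCm38.p6) run from 250 bases before to 50 after an annotated start. They were searched on both strands for the 10-base kappaB consensus, the site class NF-kappaB dimers bind. Of the 9 genes 7 had a window in the table, and 5 of these (Nfkb2, Rel, Nfkbia, Nfkbie and Tnfaip3) held a match in at least 1 window, while Rela and Nfkbib held none. Across all genes of that RefSeq set, 4.51% of 32851 windows held a match, and 5.14% of 27025 genes did in at least 1 window. Nfkb2 had 3 windows, all with a match, and Tnfaip3 had 2, of which 1 matched. The last 2 Nfkb2 windows overlap and share the same GGGACTTTCC, which is the only match of the last. Matches were GGGAATTTCC in Nfkbia, on the opposite strand with its leftmost base at position -29 from the annotated start, GGGGGATTCC in Nfkbie at -106, and in Tnfaip3 GGGACACCCC at -125 and, on the opposite strand, GGGGATTTCC at -12. A match describes letters and is not a measured binding site, and these windows bear on no measurement made here. One window with a match is printed for each of the 5 genes, for Nfkb2 1 of its 3, and that of Rela as one without. They run 5′ to 3′ on the gene's strand, and capitals mark the stretches covered by matches on either strand, which overlap each other in Nfkb2 and Rel.
Nfkb2 (chr19:46304487-46304786, plus strand): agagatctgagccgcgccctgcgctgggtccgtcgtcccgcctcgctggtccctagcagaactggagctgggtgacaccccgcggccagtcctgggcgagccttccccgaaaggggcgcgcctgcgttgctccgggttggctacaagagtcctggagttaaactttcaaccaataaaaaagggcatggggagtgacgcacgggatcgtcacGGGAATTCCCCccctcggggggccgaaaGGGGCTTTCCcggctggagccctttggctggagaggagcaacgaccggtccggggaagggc
Rel (chr11:23770920-23771219, minus strand): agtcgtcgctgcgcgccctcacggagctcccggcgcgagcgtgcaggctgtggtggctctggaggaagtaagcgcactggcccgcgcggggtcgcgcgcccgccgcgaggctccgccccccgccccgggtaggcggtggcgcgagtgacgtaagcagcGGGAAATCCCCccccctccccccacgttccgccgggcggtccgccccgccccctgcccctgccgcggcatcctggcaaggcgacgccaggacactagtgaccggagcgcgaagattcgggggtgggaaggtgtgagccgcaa
Nfkbia (chr12:55492598-55492897, minus strand): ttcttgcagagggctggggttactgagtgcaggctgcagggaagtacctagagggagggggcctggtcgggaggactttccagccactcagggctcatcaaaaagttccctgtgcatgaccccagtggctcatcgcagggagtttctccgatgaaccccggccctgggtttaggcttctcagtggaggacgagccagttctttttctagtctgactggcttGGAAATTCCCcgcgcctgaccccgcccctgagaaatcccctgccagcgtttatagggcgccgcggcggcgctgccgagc
Nfkbie (chr17:45555450-45555749, plus strand): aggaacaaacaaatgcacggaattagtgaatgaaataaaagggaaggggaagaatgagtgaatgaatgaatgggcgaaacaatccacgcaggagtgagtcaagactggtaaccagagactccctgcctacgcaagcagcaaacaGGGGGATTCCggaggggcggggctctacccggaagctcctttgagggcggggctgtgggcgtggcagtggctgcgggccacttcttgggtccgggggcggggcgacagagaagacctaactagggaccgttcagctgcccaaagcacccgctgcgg
Tnfaip3 (chr10:19015361-19015660, minus strand): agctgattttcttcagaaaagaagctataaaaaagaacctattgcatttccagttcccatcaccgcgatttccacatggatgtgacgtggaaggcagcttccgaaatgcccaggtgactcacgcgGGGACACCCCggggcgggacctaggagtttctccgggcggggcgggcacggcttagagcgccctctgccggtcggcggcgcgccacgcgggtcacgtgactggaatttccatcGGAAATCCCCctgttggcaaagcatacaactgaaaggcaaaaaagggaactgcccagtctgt
Rela (chr19:5637291-5637590, plus strand): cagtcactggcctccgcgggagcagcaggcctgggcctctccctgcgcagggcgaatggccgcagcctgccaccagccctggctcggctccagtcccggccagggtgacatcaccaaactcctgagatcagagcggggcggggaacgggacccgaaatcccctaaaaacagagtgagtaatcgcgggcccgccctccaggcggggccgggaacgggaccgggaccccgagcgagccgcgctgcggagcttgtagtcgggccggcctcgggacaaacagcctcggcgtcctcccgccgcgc

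The table held log2 intensities of 35556 probe sets, with array medians from 7.71 to 7.82, and the number of arrays limits the precision. Atf5, the target of the hairpin, read 8.46 ± 0.03 (SD, n = 4) in knockdown against 8.77 ± 0.10 (SD, n = 4) in control cells with MG132, and 8.35 ± 0.06 against 8.57 ± 0.10 with vehicle, so its transcript was lower in the line labelled knockdown (log2 difference -0.31 ± 0.05 SE, limma adjusted p = 1.48e-04, and -0.22 ± 0.05, adjusted p = 0.00321), with no overlap of the arrays. These Atf5 differences were small, -19.3% with MG132 and -14.0% with vehicle. Each kind of cell was a single line, so an effect of lower Atf5 cannot be told apart from other differences between the lines. Of 10 fibroblast markers 6 to 8, depending on the group, lay above the median of all genes. As means of all arrays Vim read 14.2, S100a4 12.9 and Col1a1 12.0, while Dcn (7.41) and Lum (4.75) were low. Of 8 macrophage markers, Ptprc, Csf1r, Adgre1, Itgam, Lyz2 and Mrc1 read between 5.78 and 6.41, and Cd14 (8.40) and Cd68 (8.28) lay above the median of all genes. Control MG132 array 4 and knockdown vehicle array 1 lay apart from their groups on the first principal component of the within-group deviations, which took 37.8% of that variance.

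The first comparison asks how proteasome inhibition changed transcripts of NF-kappaB subunits and inhibitors in control cells. The 4 subunit genes and the 3 classical IkappaB genes rose with MG132, and the atypical IkappaB gene Nfkbiz and the feedback enzyme gene Tnfaip3 fell. All 9 thus passed the test (limma, adjusted p under 0.05), 7 higher and 2 lower, where 16.8% of all 19938 genes were called higher and 19.0% lower. By mean level the 9 genes lay from percentile 56.4 (Nfkbie) to 92 (Rela) of all genes. The shares over all genes include dimmer ones, and shares among genes of like level were not computed. The increases ran from 1.34-fold for Rela to 2.13-fold for Relb. The median log2 fold change was 0.66 over the 9 genes and 0.03 over all genes. Scaled by array medians, the calls over all genes were 2150 higher and 4624 lower in place of 3341 and 3796, and the 9 genes were still called. In these bulk samples fewer cells that make a transcript and less of it per cell cannot be told apart.

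Relb, which encodes the partner of the trimmed Nfkb2 product in the noncanonical pathway, read 9.49, 9.65, 9.58 and 9.47 on the log2 scale with MG132, against 8.33, 8.65, 8.52 and 8.33 with vehicle. Every MG132 array lay above every vehicle array, by more than the widest gap within a group (log2 fold change 1.09 ± 0.06 SE, limma adjusted p = 3.75e-10). Nfkb2 read 11.39, 11.40, 11.35 and 11.37 with MG132, against 10.58, 10.49, 10.46 and 10.48 with vehicle. These groups stood well apart too, with a log2 fold change of 0.88 ± 0.03 (adjusted p = 1.79e-12). Rel, which encodes c-Rel, a subunit best known from lymphocytes, ranged from 10.32 to 10.47 with MG132 and from 9.58 to 9.84 with vehicle (log2 fold change 0.66 ± 0.06, adjusted p = 2.06e-07). Rela, which encodes p65, the subunit with the main transactivating role in fibroblasts, had the smallest of the 7 increases, 0.42 ± 0.03 (adjusted p = 1.55e-08), and its MG132 arrays (11.91 to 11.97) still lay above its vehicle arrays (11.48 to 11.57).

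Among the inhibitors, Nfkbia, which encodes IkappaB alpha, the fast feedback inhibitor, read 11.10, 11.03, 11.02 and 11.07 with MG132, against 10.24, 10.18, 10.21 and 10.16 with vehicle. It was 1.81-fold higher, with no overlap of the arrays (log2 fold change 0.86 ± 0.04, adjusted p = 1.52e-11). Nfkbie, which encodes the related inhibitor IkappaB epsilon, read 8.80, 8.74, 8.70 and 8.70 with MG132, against 7.87, 8.00, 7.85 and 7.93 with vehicle. The 1.77-fold rise (log2 fold change 0.82 ± 0.06, adjusted p = 1.64e-08) was close in size to that of Nfkbia. Nfkbib, which encodes IkappaB beta, ranged from 11.92 to 11.97 with MG132 and from 11.21 to 11.34 with vehicle (log2 fold change 0.65 ± 0.04, adjusted p = 5.27e-10).

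Nfkbiz and Tnfaip3 went the other way. Nfkbiz encodes IkappaB zeta, a nuclear protein that acts with NF-kappaB at a subset of its targets. It read 9.11, 9.30, 9.06 and 8.99 with MG132, against 9.49, 9.42, 9.45 and 9.38 with vehicle. Array 2 with MG132 came closest to the vehicle arrays, and the groups did not overlap (log2 fold change -0.32 ± 0.05, adjusted p = 9.25e-05). Tnfaip3 encodes A20, a ubiquitin-editing enzyme that shuts off signalling to the IkappaB kinase. Its values were 9.27, 9.25, 9.28 and 9.33 with MG132, against 9.75, 9.73, 9.81 and 9.74 with vehicle. It fell by 0.48 on the log2 scale (SE 0.04, adjusted p = 1.47e-08), a change of -28.1% seen on all MG132 arrays.

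**Figure D1:**
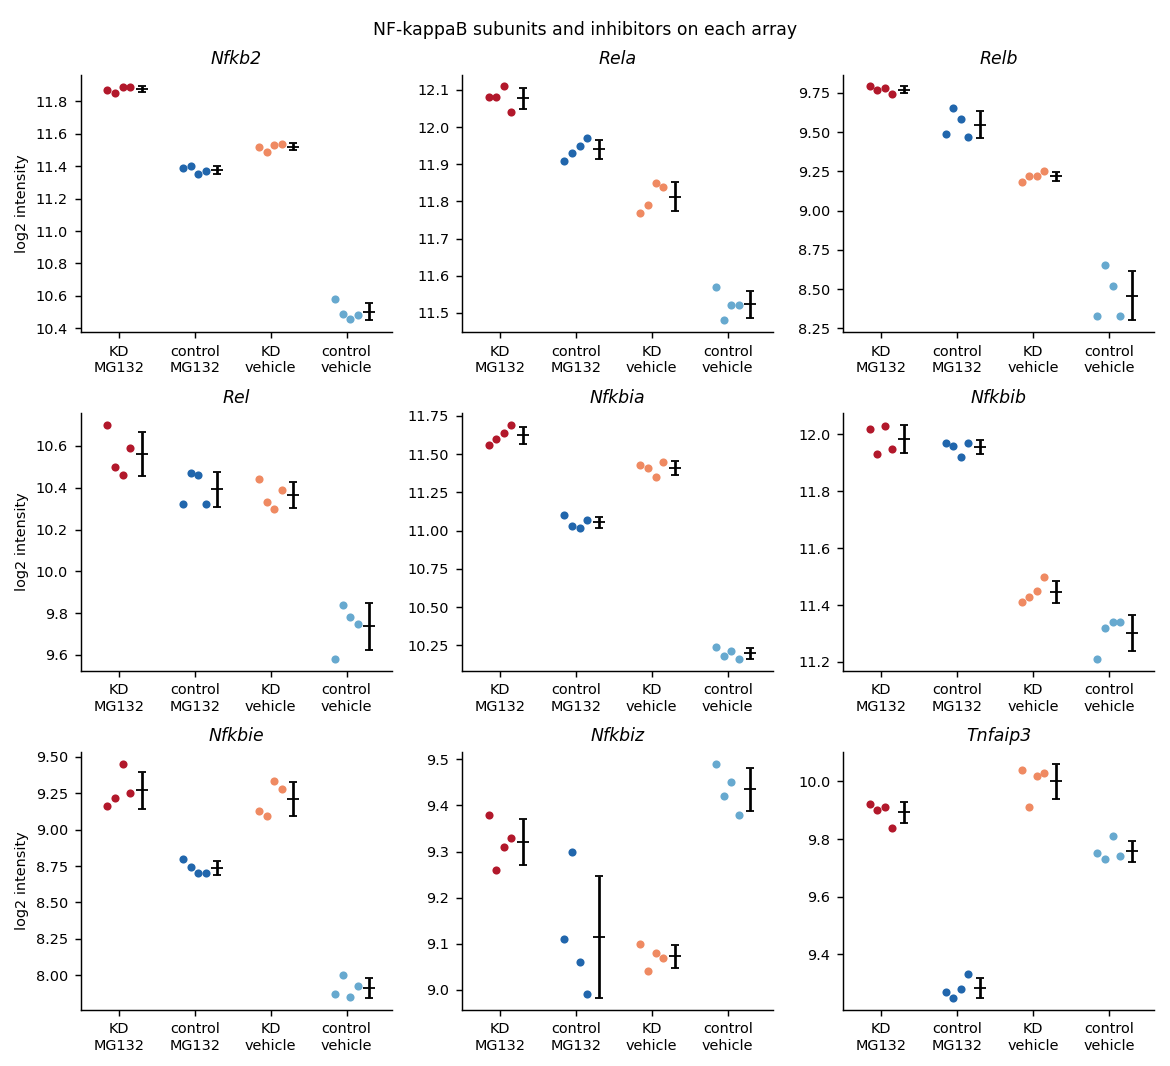
Log2 intensity (vertical axes, each with its own range) of the 9 genes on each array, with the 4 groups along the horizontal axis (KD, Atf5 knockdown). Points are arrays, and black marks beside them are the mean and SD of n = 4. For 7 genes the control vehicle arrays are the lowest of the 4 groups, and Nfkbiz and Tnfaip3 have other orders.

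The second comparison gives the same response in the Atf5-knockdown cells. MG132 raised 7 of the 9 genes there as well, Nfkbiz among them, and Tnfaip3 was lower. Nfkbie did not pass. Of all genes 16.4% were called higher and 24.3% lower. The median log2 fold change was 0.25 over the 9 genes, against 0.03 over all genes. With arrays centred on their medians the calls over all genes were 1833 higher and 5795 lower, and centred on the medians of the named genes 7140 and 3800, against 3276 and 4848. Each of these scalings called 7 of the 9 genes.

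Relb and Nfkbib had the largest increases in knockdown cells. Relb read 9.79, 9.77, 9.78 and 9.74 with MG132, against 9.18, 9.22, 9.22 and 9.25 with vehicle, a 1.47-fold difference (log2 fold change 0.55 ± 0.06, adjusted p = 1.01e-06). Nfkbib ranged from 11.93 to 12.03 with MG132 and from 11.41 to 11.50 with vehicle (0.54 ± 0.04, adjusted p = 5.25e-09). Both genes had groups that stood apart on all arrays. Nfkb2 read 11.87, 11.85, 11.89 and 11.89 with MG132, against 11.52, 11.49, 11.53 and 11.54 with vehicle (0.36 ± 0.03, adjusted p = 8.82e-08). Its spread inside each group was small beside the step between them. Rela (0.27 ± 0.03, adjusted p = 2.87e-06) also rose without overlap.

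Nfkbia read 11.56, 11.60, 11.64 and 11.69 with MG132, against 11.43, 11.41, 11.35 and 11.45 with vehicle. The step was small, though the arrays did not overlap (log2 fold change 0.21 ± 0.04, adjusted p = 1.21e-04). Nfkbie read 9.16, 9.22, 9.45 and 9.25 with MG132, against 9.13, 9.09, 9.33 and 9.28 with vehicle. These groups overlapped, and the difference of 0.06 ± 0.06 did not pass (adjusted p = 0.448, 95% interval -0.07 to 0.20). Nfkbiz rose 1.19-fold, with 9.38, 9.26, 9.31 and 9.33 with MG132, against 9.10, 9.04, 9.08 and 9.07 with vehicle (0.25 ± 0.05, adjusted p = 9.22e-04), again without overlap. Rel was higher by 0.20 ± 0.06 (adjusted p = 0.0167). That call was lost when array 3 of the knockdown vehicle plates (adjusted p = 0.0541) or array 1 of the knockdown MG132 plates (0.0675) was left out and with arrays centred on their medians (0.0986).

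Tnfaip3 had 9.92, 9.90, 9.91 and 9.84 with MG132, against 10.04, 9.91, 10.02 and 10.03 with vehicle. Vehicle array 2 lay inside the MG132 range, and the difference of -0.11 ± 0.04 passed narrowly (adjusted p = 0.0241). It missed the threshold with quantile normalization repeated (-0.04, adjusted p = 0.537), with arrays centred on the medians of the named genes (-0.05, 0.275), in a fit of these groups alone (0.0540) and without knockdown vehicle array 1, 3 or 4 or knockdown MG132 array 4 (0.0584 to 0.0776). It was also lost when 4 of the 5 lowest arrays on the within-group component were left out, either control vehicle 1 and 4, knockdown vehicle 1 and control MG132 4 (0.0603) or the lowest 4, which include knockdown MG132 2 and not control vehicle 4 (0.0813).

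**Figure D2:**
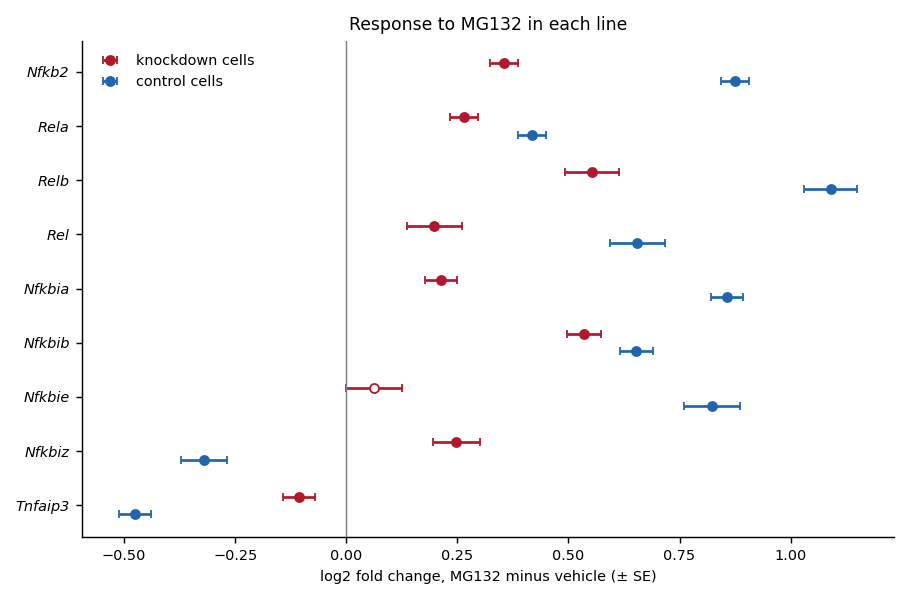
Log2 fold change of MG132 over vehicle with its SE (horizontal axis) for the 9 genes in knockdown cells (red) and control cells (blue). Filled circles passed the limma test and the open circle, Nfkbie in knockdown cells at 0.06, did not. Nfkbiz lies at 0.25 in knockdown and at -0.32 in control cells.

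The third comparison sets the lines against each other with vehicle alone. Without any proteasome inhibitor the knockdown cells had higher transcript levels of 8 of the 9 genes, and Nfkbiz was lower. The steps were largest for the feedback inhibitors Nfkbie, 2.45-fold, and Nfkbia, 2.32-fold, and for Nfkb2, 2.02-fold. All 9 passed, where 21.5% of all genes were called higher and 17.9% lower, and the median log2 difference was 0.63 over the 9 genes and -0.01 over all genes. With arrays centred on the medians of the named genes the calls over all genes were 3240 higher and 5826 lower in place of 4283 and 3565, and 8 of the 9 genes were called.

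Nfkbie averaged 9.21 ± 0.12 in knockdown and 7.91 ± 0.07 in control cells (SD, n = 4 each), a log2 difference of 1.30 ± 0.06 (SE, adjusted p = 2.31e-11). Nfkbia averaged 11.41 ± 0.04 in knockdown and 10.20 ± 0.04 in control cells (SD, n = 4 each), a difference of 1.21 ± 0.04 (adjusted p = 3.79e-14). Every knockdown array lay above every control array for both inhibitors. Nfkb2 differed by 1.02 ± 0.03 (adjusted p = 6.14e-14), Relb by 0.76 ± 0.06 (adjusted p = 1.57e-08) and Rel by 0.63 ± 0.06 (adjusted p = 2.33e-07). The remaining differences were small. They were 0.29 ± 0.03 for Rela, 0.24 ± 0.04 for Tnfaip3 and 0.15 ± 0.04 for Nfkbib, of which the last was lost with arrays centred on the medians of the named genes (0.08, adjusted p = 0.146). Nfkbiz was lower, at 9.07 ± 0.03 in knockdown and 9.44 ± 0.05 in control cells (SD, n = 4 each), a difference of -0.36 ± 0.05 (adjusted p = 1.99e-05).

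Markers of other cell types moved with the groups in part. The summed level of 8 macrophage markers, as log2 of their summed linear intensities, ran from 10.28 to 10.38 in knockdown cells with MG132, 9.94 to 10.00 in control cells with MG132, 10.08 to 10.18 in knockdown cells with vehicle and 9.83 to 9.88 in control cells with vehicle. The median of the 8 markers on each array did not separate the groups. In the same order it ran from 6.105 to 6.32, 6.11 to 6.34, 6.09 to 6.255 and 6.065 to 6.24. Of the 8, 1 was called higher in knockdown cells with MG132 and 2 with vehicle, and 2, Cd14 and Csf1r, were raised by MG132 in each line. The line differences were in Cd14, higher by 1.05 ± 0.07 with MG132 and 0.79 ± 0.07 with vehicle, and Cd68 (0.12 ± 0.04 with vehicle). Ptprc, the pan-leukocyte marker, averaged 6.26 over all arrays and, like Itgam, Adgre1, Lyz2 and Mrc1, was called in no comparison. Of the endothelial, epithelial and lymphoid markers none was called higher in knockdown cells. The endothelial genes Kdr (-0.36 ± 0.05 with MG132) and Cdh5 (-0.28 ± 0.04 with vehicle) and the epithelial gene Epcam (-0.20 ± 0.07 with MG132) were lower there. No probe set can read 0 on this scale, and the part of these markers in the results was not tested.

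The fourth comparison is between the lines under MG132. Here 8 of the 9 genes were higher in knockdown cells, now with Nfkbiz among them, and Nfkbib did not pass. Of all genes 17.7% were called higher and 20.3% lower, and the medians were 0.22 over the 9 genes and 0.00 over all genes. Tnfaip3 had the largest difference, 9.89 ± 0.04 in knockdown and 9.28 ± 0.03 in control cells (SD, n = 4 each), 1.53-fold (log2 difference 0.61 ± 0.04 SE, adjusted p = 3.87e-10). Nfkbia (0.57 ± 0.04, adjusted p = 1.06e-09), Nfkbie (0.54 ± 0.06, adjusted p = 2.16e-06) and Nfkb2 (0.50 ± 0.03, adjusted p = 9.67e-10) followed, all without overlap.

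Relb differed by 0.22 ± 0.06 (adjusted p = 0.00677) and Rela by 0.14 ± 0.03 (adjusted p = 0.00199), again without overlap. Nfkbiz was higher by 0.21 ± 0.05 (adjusted p = 0.00432), although control MG132 array 2, at 9.30, lay inside the knockdown range. Nfkbib averaged 11.98 ± 0.05 in knockdown and 11.96 ± 0.02 in control cells (SD, n = 4 each), and its difference of 0.03 ± 0.04 did not pass (adjusted p = 0.646, 95% interval -0.05 to 0.11). Rel was higher by 0.17 ± 0.06 with overlapping arrays (adjusted p = 0.0390). That call was lost without any of control MG132 array 1 or 4 or knockdown MG132 array 1 or 4 (adjusted p 0.0856 to 0.146), without moderation (0.0613), with only these groups fitted (0.0543), without control vehicle 1 and 4, knockdown vehicle 1 and control MG132 4 together (0.0601) and with arrays centred on the medians of the named genes (0.0884).

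**Figure D3:**
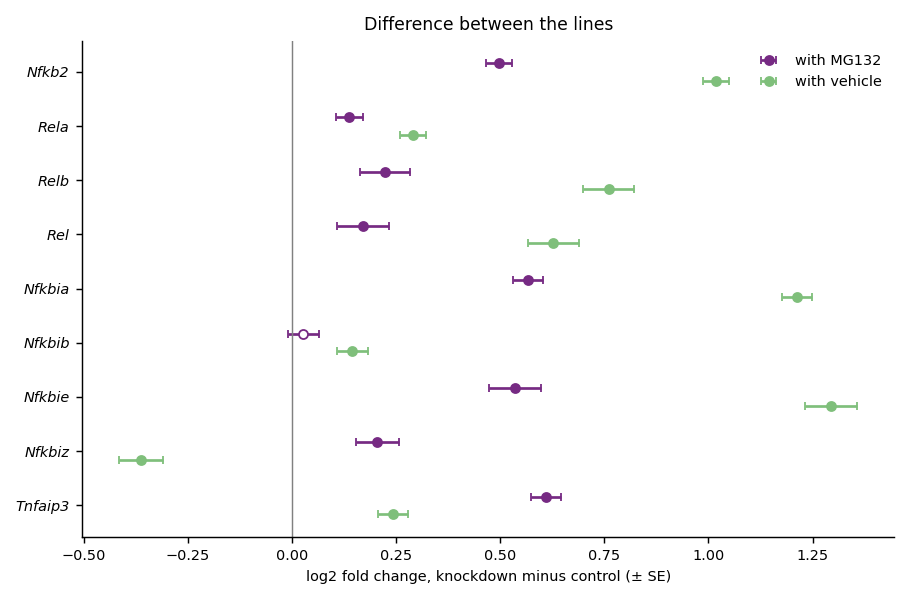
Log2 difference of knockdown over control cells with its SE (horizontal axis) for the 9 genes with MG132 (purple) and with vehicle (green). Filled circles passed the limma test and the open circle, Nfkbib with MG132, did not. Tnfaip3 and Nfkbiz lie further to the right with MG132, and the other 7 further to the right with vehicle.

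The last comparison tests whether MG132 acted alike in the lines, as the response of the knockdown cells minus that of the control cells. Of the 9 genes 8 passed, 6 with a smaller increase in knockdown cells and 2, Nfkbiz and Tnfaip3, with a positive difference. Across all genes 4.45% were called with a positive and 10.1% with a negative difference. The median was -0.46 over the 9 genes and -0.01 over all genes. With arrays centred on the medians of the named genes the calls over all genes were 1242 positive and 1011 negative in place of 888 and 2015, and 7 of the 9 genes passed. These values use the same vehicle arrays as the comparison of the lines without MG132, so a high knockdown vehicle level and a small knockdown response are not independent observations.

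Nfkbie had the largest difference of responses, -0.76 ± 0.09 (adjusted p = 3.11e-05), from log2 responses of 0.06 in knockdown and 0.82 in control cells. Nfkbia followed with -0.65 ± 0.05 (adjusted p = 5.83e-07), from 0.21 in knockdown and 0.86 in control cells. For Relb the difference was -0.54 ± 0.09 (adjusted p = 4.91e-04), for Nfkb2 -0.52 ± 0.04 (adjusted p = 1.33e-06) and for Rel -0.46 ± 0.09 (adjusted p = 0.00199). Nfkbiz responded in opposite directions in the lines, a difference of 0.57 ± 0.07 (adjusted p = 8.82e-05), and Tnfaip3 fell less in knockdown cells (0.37 ± 0.05, adjusted p = 1.56e-04). Nfkbib had the smallest difference, -0.12 ± 0.05, which did not pass (adjusted p = 0.164, 95% interval -0.23 to -0.01 before adjustment). The call for Rela (-0.15 ± 0.04, adjusted p = 0.0302) was fragile. It was lost with arrays centred on their medians (0.0855) or on those of the named genes (0.236) and when any of 9 single arrays was left out (0.0503 to 0.0713). These were arrays 1, 2 and 4 of the knockdown cells and array 3 of the control cells with MG132, and arrays 3 and 4 of the knockdown cells and 2, 3 and 4 of the control cells with vehicle.

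Put in order of level, the 9 genes fell into a few patterns over the 4 groups. Nfkb2, Nfkbia and Nfkbie were highest in knockdown cells with MG132, then in knockdown cells with vehicle, then in control cells with MG132, and lowest in control cells with vehicle. Neighbours in that order did not overlap, except the knockdown groups for Nfkbie. Rela, Relb, Rel and Nfkbib had the control cells with MG132 in the second place instead. Their neighbours did not overlap for Rela and Relb, while for Nfkbib the MG132 groups of the lines overlapped, and for Rel the MG132 groups overlapped each other and the control MG132 arrays overlapped the knockdown vehicle arrays. Tnfaip3 was highest in the knockdown groups, which overlapped, and lowest in control cells with MG132. For Nfkbiz every pair of neighbours overlapped, with control cells with vehicle at the top and knockdown cells with vehicle at the bottom.

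Over the 16 arrays, which fall into these 4 groups, Nfkb2 and Nfkbia followed each other most closely (Pearson r = 0.988), and Nfkbie was closest to Nfkbia (0.982). Rela and Relb were each other's closest member (0.968), and Rel (0.955) and Nfkbib (0.898) were also closest to Relb. Tnfaip3 and Nfkbiz resembled no other member, with highest r of 0.317 and 0.155. Nfkbia and Nfkb2 had the widest ranges of group means, 1.43 and 1.37 on the log2 scale. Among all other named genes, those most like Nfkbia were the monocyte-attracting chemokine gene Ccl2 (0.996), Aldh1l2 (0.994), which encodes a mitochondrial folate enzyme, and Uap1l1 (0.991). Those most like Nfkb2 were Rab39b (0.998), which encodes a small GTPase, Aldh1l2 (0.992) and Hspa4l (0.990), a heat shock protein gene of the HSP110 family. Such likeness is a description of 4 group levels.

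The other genes of the pathway were counted by role. Of 19 receptors and adaptors upstream of the kinase, 9 were higher and 3 lower in knockdown cells than in control cells with MG132, where 17.7% of all genes were higher and 20.3% lower. With vehicle 12 were higher and 2 lower, against 21.5% and 17.9% of all genes. Traf1, an adaptor of tumor necrosis factor receptors, was higher by 1.24 ± 0.07 with MG132 and by 1.39 ± 0.07 with vehicle. Birc3, a ubiquitin ligase of the receptor complex, was higher by 0.75 ± 0.06 and 1.03 ± 0.06, the receptor gene Tnfrsf1a by 0.75 ± 0.05 and 0.81 ± 0.05, and the microbial sensor gene Tlr2 by 0.75 ± 0.06 and 0.77 ± 0.06 (all adjusted p at most 2.89e-08). MG132 itself moved this group both ways, 6 up and 9 down in knockdown and 6 up and 6 down in control cells, against 16.4% up and 24.3% down and 16.8% up and 19.0% down over all genes. The adaptor Myd88 rose by 0.57 ± 0.03 in knockdown and 0.61 ± 0.03 in control cells, and the receptor gene Tnfrsf1b fell in both (-0.46 ± 0.04 and -0.60 ± 0.04).

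The kinase group held the IkappaB kinase subunit genes Ikbkb and Ikbkg, related and activating kinases, their adaptors and the linear ubiquitin ligase. The kinase subunit gene Chuk was not among those tested. Of 13 tested, MG132 raised 5 and lowered 3 in knockdown cells, where 16.4% of all genes were higher and 24.3% lower. In control cells it raised 7 and lowered 2, against 16.8% and 19.0% of all genes. Rnf31, the catalytic subunit of the linear ubiquitin ligase, rose by 0.24 ± 0.03 in knockdown and 0.34 ± 0.03 in control cells, and Tab1, a partner of the kinase TAK1, fell (-0.68 ± 0.05 and -0.49 ± 0.05). Between the lines 5 were higher and 2 lower in knockdown cells with MG132 (17.7% and 20.3% of all genes), and 6 were higher and 2 lower with vehicle (21.5% and 17.9%), where Ikbke had the smallest p (0.58 ± 0.05, adjusted p = 8.11e-08).

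Of 5 tested subunits of the ligase that tags IkappaB, MG132 raised 2 and lowered 2 in knockdown cells (16.4% and 24.3% of all genes) and raised 3 and lowered 1 in control cells (16.8% and 19.0%). The substrate receptor Btrc was -0.22 ± 0.04 in knockdown and 0.14 ± 0.04 in control cells, calls of opposite sign whose difference passed (-0.36 ± 0.06, adjusted p = 6.03e-04), and its paralog Fbxw11 rose in both (0.21 ± 0.05 and 0.27 ± 0.05). Between the lines 1 was higher and 1 lower in knockdown cells with MG132 (17.7% and 20.3% of all genes), and 2 were higher and 1 lower with vehicle (21.5% and 17.9%). With 5 genes these counts are few.

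Further inhibitors, regulators and atypical IkappaB genes outside the 9 genes numbered 16, and not all of them only inhibit. In knockdown cells 8 were higher and 3 lower than in control cells with MG132, where 17.7% of all genes were higher and 20.3% lower. With vehicle 10 were higher and 2 lower, against 21.5% and 17.9%. The deubiquitinase gene Cyld was higher by 0.73 ± 0.04 with MG132 and 0.63 ± 0.04 with vehicle, and Tnip1, an A20-binding partner, by 0.36 ± 0.04 and 0.57 ± 0.04. Bcl3, an atypical IkappaB relative, differed by 0.73 ± 0.07 with vehicle (adjusted p = 7.15e-08). MG132 raised 6 and lowered 4 of the 16 in knockdown cells (16.4% and 24.3% of all genes) and raised 7 and lowered 4 in control cells (16.8% and 19.0%). Cyld fell by 0.44 and 0.55 on the log2 scale, and Pdlim2, which promotes p65 degradation, fell by 0.44 and 0.77. Tax1bp1, an adaptor of A20, rose by 0.43 ± 0.05 and 0.59 ± 0.05.

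Target genes of NF-kappaB in fibroblasts included the largest line differences among the genes named here. Of 29 tested, 18 were higher and 1 lower in knockdown cells with MG132, where 17.7% of all genes were higher and 20.3% lower. With vehicle 15 were higher and 4 lower, against 21.5% and 17.9%. The medians of the list were 0.48 with MG132 and 0.21 with vehicle. Vcam1, a leukocyte adhesion molecule, was higher by 2.93 ± 0.06 with MG132 and 3.47 ± 0.06 with vehicle, and the chemokine genes Ccl2 (1.56 ± 0.05 and 3.18 ± 0.05), Cxcl5 (2.37 ± 0.06 and 2.17 ± 0.06) and Ccl5 (1.31 ± 0.05 and 1.72 ± 0.05) were higher too. MG132 raised 16 and lowered 3 of the 29 in knockdown cells (16.4% and 24.3% of all genes) and raised 11 and lowered 3 in control cells (16.8% and 19.0%). Some calls made in knockdown cells alone were of dim genes. With MG132 and with vehicle, Csf2 read 5.81 and 5.57, Il1a 6.03 and 5.63, Saa3 6.17 and 5.98, and Mmp3 6.40 and 6.19. In that comparison the Csf2, Il1a and Mmp3 arrays overlapped. The genes called higher between the lines include dim ones too. With vehicle, Il6 read 4.59 in knockdown and 4.37 in control cells and Mmp3 6.19 and 5.98, both with overlap. With MG132, Il1a read 6.03 in knockdown and 5.40 in control cells and Mmp3 6.40 and 5.87, both without overlap. Icam1, another listed target, was called in no comparison. Cxcl10 rose by 1.61 ± 0.07 in knockdown and 2.55 ± 0.07 in control cells, whereas Plau, which encodes the urokinase protease, had log2 responses of -0.98 ± 0.04 and -1.34 ± 0.04. Ptgs2, the inducible cyclooxygenase, was lower in knockdown cells with vehicle (-0.78 ± 0.04) and slightly higher there with MG132 (0.16 ± 0.04, adjusted p = 0.00509). MG132 raised it by 1.22 ± 0.04 in knockdown and 0.28 ± 0.04 in control cells, and its responses differed by 0.94 ± 0.06 (adjusted p = 4.80e-08).

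The difference of the responses was called for 0 of 19 receptors and adaptors upward and 4 downward. Upward and downward calls were 0 and 2 of 13 genes of the kinase group and 0 and 1 of 5 ligase subunits. They were 1 and 3 of 16 further inhibitors and regulators, and 6 and 5 of 29 targets. Over all genes 4.45% were called upward and 10.1% downward. Among the genes of these lists, the target Ccl2 had the smallest p (-1.62 ± 0.07, adjusted p = 8.10e-10). Median differences were -0.06, -0.10, 0.00, -0.04 and 0.13 for these lists, against -0.01 for all genes.

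**Figure D4:**
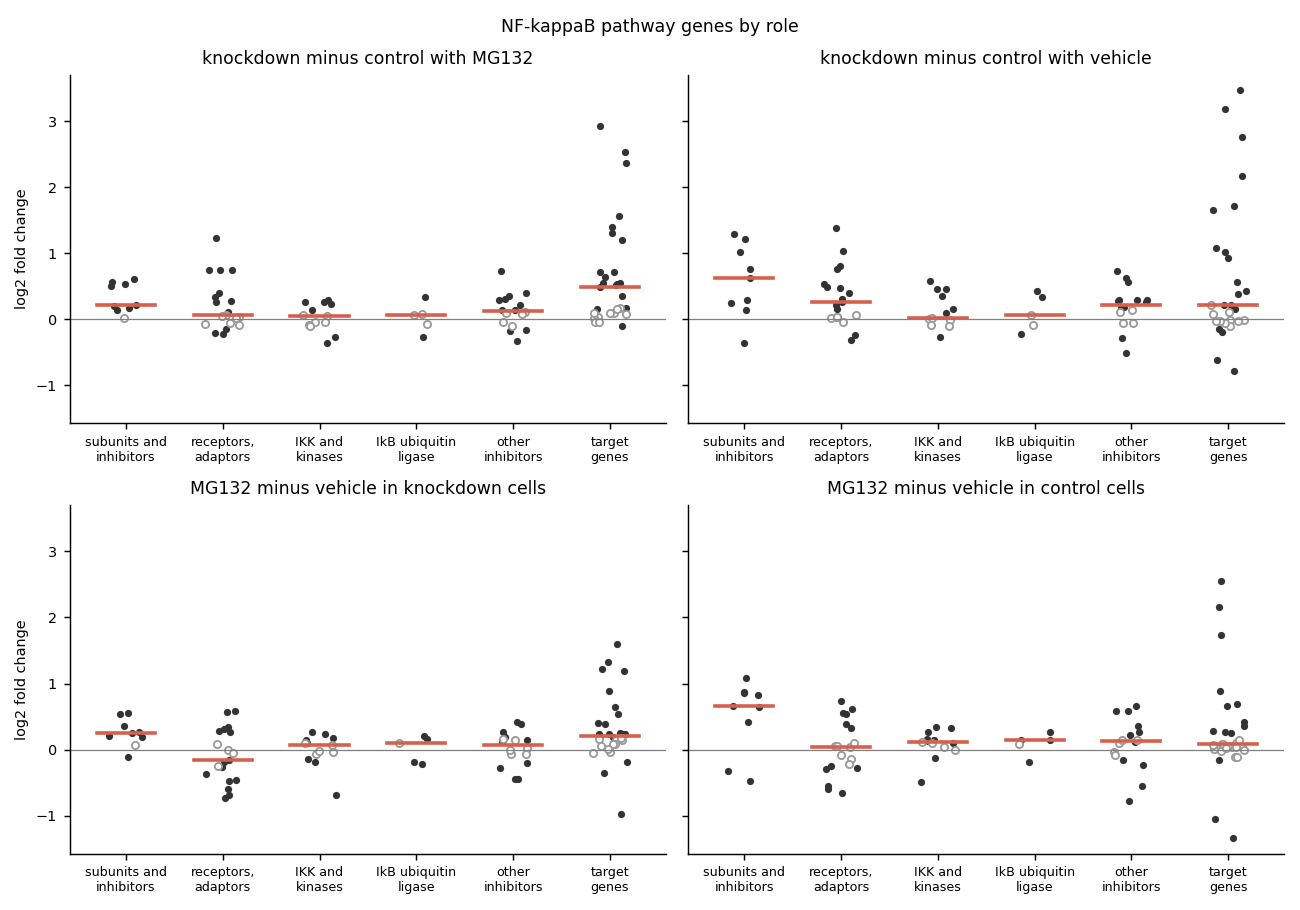
Log2 fold change (vertical axis) of the tested genes of each role in 4 comparisons, named above the panels. Filled points passed the limma test, open points did not, and red bars are list medians. The medians of the 9 subunit and inhibitor genes are 0.63 between the lines with vehicle and 0.22 with MG132, and 0.25 and 0.66 for MG132 over vehicle in knockdown and control cells.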

How the data were processed

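Total RNA of 16 plates was hybridised to Affymetrix whole-transcript arrays, 1 per plate. The values are log2 probe set intensities deposited by the authors, rounded to 2 decimals. The submitters' processing notes list RMA and Partek without a version or setting. RMA forces the arrays to share a distribution, which can hide a shift of most genes and compress very dim or bright probe sets. No detection calls were used.

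GEO's annotation table of the platform gave the gene names. Of 35556 probe sets 21789 carried 1 gene symbol, 1621 several and 12146 were not listed there. Of the 21789, 21698 matched RefSeq (GRCm38.p6) by gene ID, with 0 symbols changed. The probe set with the highest mean stood for each of 999 genes that had more than 1, which left 19938 genes. Start-site windows came from RefSeq.

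All 16 arrays entered a 4-group model in R 4.3.3 with limma 3.58.1 (lmFit, then eBayes; 12 residual plus 4.12 prior degrees of freedom; two-sided; neither filter nor block). Benjamini-Hochberg adjustment ran over the 19938 genes, with 0.05 as the threshold, and each ± beside a log2 fold change is the limma SE. The code was tested on simulated data. Genes named beyond the 9 are up to 4 of each list with the smallest p per comparison, Atf5, and for Nfkbia and Nfkb2 the 3 genes with the highest r, skipping gene models, clones and small RNAs. Some values of a named gene are repeated for another comparison. The 9 genes, the pathway lists and the rules were chosen with earlier results of these data known. Alternatives were quantile normalization repeated, median centring, a filter at the 25th percentile, averaging probe sets per gene, fitting just the groups compared, a trended robust prior, no moderation, array weights, the replicate number as a block and each array left out. Figures were made with matplotlib 3.10.9 under Python 3.11.15.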

Additional observations from a re-analysis of the deposited data

Results flagged for a closer look

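The MG132 responses of the lines differed for 8 of the 9 genes by the limma test of the difference itself, knockdown minus control. The log2 differences were -0.52 for Nfkb2, -0.15 for Rela, -0.54 for Relb, -0.46 for Rel, -0.65 for Nfkbia and -0.76 for Nfkbie, and 0.57 for Nfkbiz and 0.37 for Tnfaip3. By the same test 4.45% of all genes had a positive and 10.1% a negative difference.

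Among 36 sets of 4 arrays, 1 for each gene and group, 2 had an array far from the other 3 by Dixon's test, and chance alone gives about 1 in 20. Nfkbib read 11.21 on control vehicle array 1, against 11.32 to 11.34 on the others. Tnfaip3 read 9.91 on knockdown vehicle array 2, against 10.02 to 10.04 on the others.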

How the results depend on the processing

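Of the 45 log2 fold changes, 9 genes in 5 comparisons, 40 kept their direction and side of the threshold under all 28 alternatives (27 for the difference of the responses). The other 5 kept their direction and lost a call somewhere: Rel and Tnfaip3 in the knockdown response, Nfkbib between the lines with vehicle, Rel between the lines with MG132 and Rela in the difference of the responses. Counts of the 9 genes called stayed at 9 in the control response, 6 to 8 in the knockdown response, 8 to 9 and 7 to 8 between the lines with vehicle and with MG132, and 7 to 8 for the difference.

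No source says that replicate numbers pair the plates. Deviations of same-numbered arrays correlated above 0.1 for 3 of 4 numbers between treatments in knockdown cells (-0.040 to 0.182) and in control cells (0.032 to 0.335), 3 of 4 between the lines with vehicle (-0.221 to 0.396) and 0 of 4 with MG132 (-0.245 to 0.098). Of 8 arrays 3, 5, 4 and 1 correlated best with their own number, so the numbers were not taken as pairs. With the replicate number as a block 9, 8, 9, 7 and 7 genes were called in the order of the comparisons, against 9, 8, 9, 8 and 8, with Rel between the lines under MG132 (adjusted p = 0.0641) and Rela in the difference (0.0520) lost.

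After the data were seen, 4 of the 5 lowest arrays on the within-group component were left out. Without control vehicle 1 and 4, knockdown vehicle 1 and control MG132 4 the counts were 9, 7, 9, 7 and 8, which lost Tnfaip3 in the knockdown response (0.0603) and Rel between the lines under MG132 (0.0601). Without the lowest 4, which include knockdown MG132 2 and not control vehicle 4, they were 9, 7, 9, 8 and 8. Centring on the medians of the named genes, also added then, gave 9, 7, 8, 7 and 7. Over all genes, the 3276 genes higher in the knockdown response became 1833 with median centring, 5425 with array weights and 5498 without the first set of 4 arrays. The cause of these changes was not tested.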
